A study of Homo sapiens with 12 samples.

Results

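The sarcomeric myosin heavy chain genes MYH13, MYH8, MYH4, MYH1, MYH2 and MYH3 lie side by side on human chromosome 17 and are described here in G401 cells, a malignant rhabdoid tumour cell line with the genotype SMARCB1(-/-). The 6 genes were taken from the 57820 gene rows of the count tables by their Ensembl identifiers, and all 6 had a row. The set was built around MYH8, which had been singled out for its rise with SMARCB1 in DMSO, so values from that contrast are given as a description and carry no test.

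SMARCB1 is one of the core proteins of SWI/SNF (BAF) complexes, which move nucleosomes with energy from ATP. All libraries came from G401 cells without their own SMARCB1 in which doxycycline induced a transgene, either GFP, the control, or SMARCB1. Each cell state received for 24 h either the solvent DMSO or dBRD9-A, a compound that degrades BRD9, the bromodomain protein of non-canonical BAF. There were 3 replicates in each of the 4 groups, called here GFP in DMSO, GFP with dBRD9-A, SMARCB1 in DMSO and SMARCB1 with dBRD9-A. The labels do not say whether replicates came from separate cultures, so p-values measure the spread between these libraries, which may be technical. SMARCB1 itself had 0 to 2 counts in every GFP library, 69021 to 110893 counts in SMARCB1 in DMSO and 53033 to 71966 counts in SMARCB1 with dBRD9-A. Libraries held 34.97 to 58.54 megacounts (a megacount is 1e6 counts). CPM is counts per megacount of a library's scaled total, and the floor for a gene at or near 0 is 3 counts per library, which covers counting error only.

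Myosin heavy chains are the motor subunits of thick filaments. In skeletal muscle the clustered genes are used in turn: MYH3 encodes the embryonic chain and MYH8 the perinatal chain, MYH2, MYH1 and MYH4 the adult fast IIa, IIx and IIb chains, and MYH13 a chain of extraocular and laryngeal muscles. Their usual activators are the myogenic factors MYOD1, MYF5, MYF6 and MYOG together with MEF2 factors. Nonmuscle myosins such as MYH9 and MYH10 are present in most cells and are encoded elsewhere. As a check of the labelled cell type, the summed level of VIM, KRT8 and KRT18, the intermediate filament genes that rhabdoid tumour cells express together, was 5690 to 6420 CPM across all 12 libraries. Within that sum the genes moved apart. From GFP in DMSO to SMARCB1 in DMSO, VIM went from 1320 to 2310 CPM, KRT8 from 2310 to 1900 CPM and KRT18 from 2530 to 1690 CPM. The defining muscle regulators MYOD1, MYF5, MYF6 and MYOG were at 0 counts in every library.

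The start regions of 4 of the 6 genes are printed because these genes were recorded at 0 or near 0 in GFP cells and differed widely from each other in SMARCB1 cells while sharing sequence upstream. Each run holds the 250 bases before the gene's start from RefSeq (GRCh38.p14, minus strand), 5′ to 3′. Capitals mark runs of at least 12 bases that also occur in the window of another member. A RefSeq window was matched for 5 of the 6 members, MYH3 being the exception. The windows are chr17:10421951-10422200 for MYH8, chr17:10469560-10469809 for MYH4, chr17:10518543-10518792 for MYH1 and chr17:10549659-10549908 for MYH2.
MYH8: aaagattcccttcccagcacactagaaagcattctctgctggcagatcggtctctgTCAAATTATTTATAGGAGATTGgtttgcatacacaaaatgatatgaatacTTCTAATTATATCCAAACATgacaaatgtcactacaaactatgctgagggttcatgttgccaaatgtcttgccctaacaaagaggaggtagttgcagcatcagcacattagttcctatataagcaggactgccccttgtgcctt
MYH4: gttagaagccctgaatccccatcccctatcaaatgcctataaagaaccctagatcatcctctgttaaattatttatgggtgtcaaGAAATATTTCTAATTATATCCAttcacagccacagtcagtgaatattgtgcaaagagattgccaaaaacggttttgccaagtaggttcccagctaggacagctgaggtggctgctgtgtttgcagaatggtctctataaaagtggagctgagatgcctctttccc
MYH1: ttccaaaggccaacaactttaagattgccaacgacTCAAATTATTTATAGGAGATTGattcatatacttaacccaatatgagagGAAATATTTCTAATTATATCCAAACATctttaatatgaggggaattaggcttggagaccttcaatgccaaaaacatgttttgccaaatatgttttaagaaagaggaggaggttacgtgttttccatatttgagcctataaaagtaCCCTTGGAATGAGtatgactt
MYH2: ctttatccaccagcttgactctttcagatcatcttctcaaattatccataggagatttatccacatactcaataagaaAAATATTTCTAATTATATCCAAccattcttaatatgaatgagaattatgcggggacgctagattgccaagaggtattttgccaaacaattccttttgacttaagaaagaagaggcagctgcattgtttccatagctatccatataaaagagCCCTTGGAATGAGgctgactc

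The run TTCTAATTATATCCA, 15 bases long, was present in all 4 of these windows and in no other of 35116 RefSeq windows of the same length searched on both strands. MYH8 and MYH1 shared a further run of 22 bases, TCAAATTATTTATAGGAGATTG, which contains a match to the MEF2 motif 189 bases before the MYH8 start and 210 bases before the MYH1 start. MEF2 matches were found in 2.8% of all windows, and MYH2, MYH4 and MYH13 had none in theirs. A TATAAA match stood 31 bases before the start in MYH4, MYH1 and MYH2, and MYH8 had TATATAA 29 bases before its start. These were found on either strand in 10.7% (TATAAA) and 2.42% (TATATAA) of windows. MYH1 and MYH2 also shared CCCTTGGAATGAG, which holds a match to the MCAT motif CATTCC on the opposite strand, a motif present in 11.9% of windows. The E-box CANNTG, the motif bound by MYOD1 and its relatives, was present in 61.8% of windows and occurred in those of MYH8, MYH4, MYH2 and MYH13 but not of MYH1. The window of MYH13 (chr17:10373007-10373256) shared at most 10 bases in a row with any other member. A match is a description of letters, not of binding.

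MYH8 (ENSG00000133020.4), the perinatal chain, was recorded only in SMARCB1 libraries. It had 0 counts in each of the 3 libraries of GFP in DMSO and in each of the 3 of GFP with dBRD9-A. In SMARCB1 in DMSO replicates 1, 2 and 3 had 1151, 1128 and 2103 counts, and in SMARCB1 with dBRD9-A they had 797, 1138 and 928. Scaled for depth, the SMARCB1 in DMSO libraries stood at 30.1, 28.4 and 36.2 CPM and those with dBRD9-A at 19.8, 21.0 and 21.6 CPM, so the SMARCB1 groups did not overlap.

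MYH2 (ENSG00000125414.14), the adult fast IIa chain, was the other abundant member, but its GFP libraries were not empty. It had 2, 6 and 14 counts in GFP in DMSO and 6, 2 and 1 in GFP with dBRD9-A. In SMARCB1 in DMSO it had 876, 998 and 1398 counts (22.9, 25.1 and 24.0 CPM), and in SMARCB1 with dBRD9-A 818, 1189 and 902 (20.3, 21.9 and 21.0 CPM). The lowest SMARCB1 library thus lay far above the highest GFP library, and replicate 3 of GFP in DMSO was the highest of the GFP libraries.

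MYH1 (ENSG00000109061.9), the IIx chain, followed the same on and off pattern at a far lower level. It had 0 counts in all 6 GFP libraries, 21, 23 and 19 counts in SMARCB1 in DMSO (0.485 ± 0.138 CPM, SD, n = 3) and 6, 13 and 7 counts in SMARCB1 with dBRD9-A (0.184 ± 0.0488 CPM, SD, n = 3). MYH13 (ENSG00000006788.8), the extraocular chain, was also at 0 in the 6 GFP libraries. It had 5, 13 and 13 counts in SMARCB1 in DMSO and 4, 11 and 13 in SMARCB1 with dBRD9-A, groups that overlap. MYH4 (ENSG00000264424.1), the IIb chain, was at 0 in the GFP libraries and close to the floor elsewhere, with 4, 1 and 4 counts in SMARCB1 in DMSO and 0, 5 and 0 in SMARCB1 with dBRD9-A.

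MYH3 (ENSG00000109063.10), the embryonic chain and the outermost gene on its side of the cluster, had its highest values in GFP cells. It had 38, 20 and 27 counts in GFP in DMSO (0.542 ± 0.115 CPM, SD, n = 3) and 19, 12 and 15 in GFP with dBRD9-A (0.394 ± 0.0688 CPM). It had 13, 14 and 11 counts in SMARCB1 in DMSO (0.294 ± 0.091 CPM) and 12, 18 and 7 in SMARCB1 with dBRD9-A (0.264 ± 0.0895 CPM, SD, n = 3 each). MYH3 was the only member whose mean was not higher in SMARCB1 cells.

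**Figure D1:**
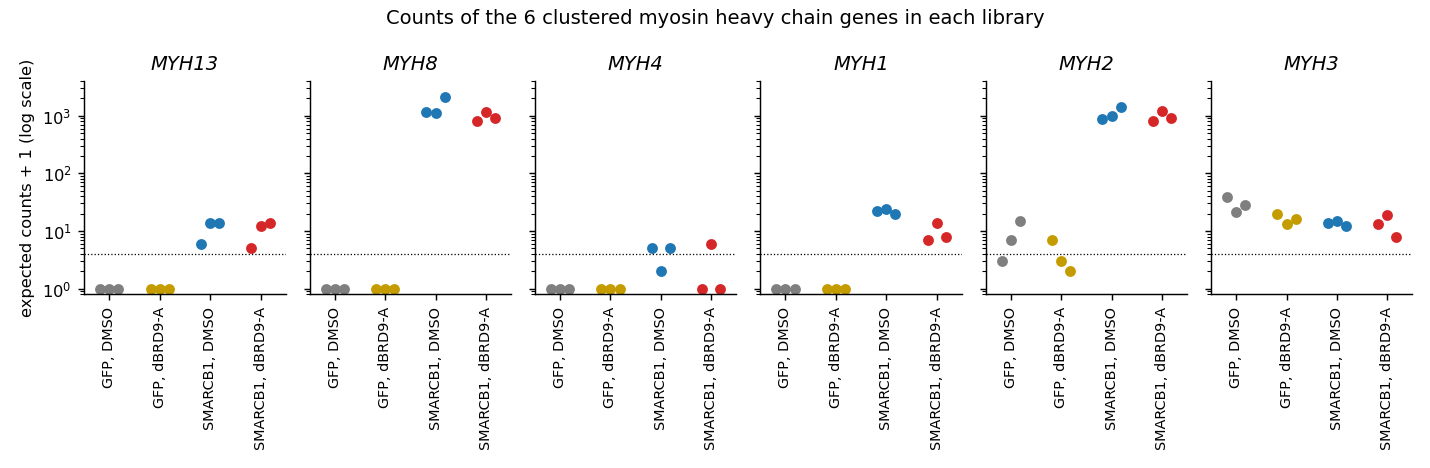
Expected counts plus 1 on a log scale for the 6 clustered genes in every library, grouped by transgene and treatment, with a dotted line at the floor of 3 counts. MYH8 and MYH2 reach 797 to 2103 counts in SMARCB1 libraries, MYH13, MYH4 and MYH1 stay at or below 23, and MYH3 holds 7 to 38 counts in every group.

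Per kilobase of transcript, the scale on which levels of different genes can be compared, the order in SMARCB1 in DMSO was MYH8 at 5.23 ± 0.674 CPM per kb, MYH2 at 3.79 ± 0.175, MYH1 at 0.0806 ± 0.0229, MYH3 at 0.0487 ± 0.0151, MYH13 at 0.0375 ± 0.0162 and MYH4 at 0.011 ± 0.00662 (SD, n = 3). MYH1, MYH3 and MYH13 are neighbours in that order whose means ± SD overlap. With dBRD9-A, MYH8 (3.44 ± 0.15 CPM per kb) and MYH2 (3.32 ± 0.127) also lay within each other's spread. MYH8 and MYH2 together held 97.7% to 98.7% of the cluster's counts in the 6 SMARCB1 libraries. In the 6 GFP libraries the largest share, 65.9% to 95% of 14 to 41 counts, belonged to MYH3. Summed over the 6 genes, the level was 0.683 ± 0.0456 CPM in GFP in DMSO, 0.468 ± 0.108 in GFP with dBRD9-A, 56.7 ± 3.74 in SMARCB1 in DMSO and 42.6 ± 1.64 in SMARCB1 with dBRD9-A (SD, n = 3).

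Reads can be shared between members, since their transcripts are alike. In GENCODE release 29 the longest coding transcripts of MYH8 and MYH2 were 86.9% identical over their alignment, yet only 1.84% of the 50-base words of MYH8 occurred in MYH2. MYH1 and MYH2 were closer, at 90.3% identity and 14.08% of MYH1 words found in MYH2, and 20.84% of MYH1 words occurred in some other member. RSEM divides such reads by estimation, so the low counts of MYH1, MYH4 and MYH13 beside abundant MYH2 and MYH8 are uncertain. How much of them are shared reads was not tested. The expected counts of all members were whole numbers in every library. Those of the antisense gene MYHAS, described below, held fractions (22.88 to 32.53 in SMARCB1 in DMSO).

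Genes transcribed against the cluster were recorded in the same libraries. MYHAS (ENSG00000272975.1), an antisense gene whose annotated span covers MYH8, MYH4, MYH1 and MYH2, had 0 counts in the 6 GFP libraries, 22.88 to 32.53 in SMARCB1 in DMSO and 28.37 to 32.88 in SMARCB1 with dBRD9-A. ENSG00000272736.1, which covers the same 4 genes, had 0 in GFP libraries and 5.04 to 16.07 in SMARCB1 libraries, and ENSG00000214970.4, within the MYHAS span, 0 and 1 to 12.08. The antisense genes ENSG00000264067.1 and ENSG00000273388.1, which overlap MYH13, had at most 1 and 3 counts in any library. MYHAS stood at 0.635 ± 0.107 CPM in SMARCB1 in DMSO and 0.693 ± 0.154 with dBRD9-A (SD, n = 3), with a log2 fold change between them of 0.12 ± 0.28 (SE) and an adjusted p of 0.922. Whether the counting used strand is not given in the sources used here. Without it, reads of a member and of its antisense partner cannot be told apart.

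SMARCB1 against GFP, both with dBRD9-A, was the contrast of SMARCB1 that used no library of the contrast that singled out MYH8. Genes were tested with edgeR's quasi-likelihood test over all genes passing its filter on low counts, with Benjamini-Hochberg adjustment and a threshold of 0.05. Of the 6 members, MYH8, MYH2, MYH1 and MYH3 passed the filter, and 3 of these 4 rose, where 33% of the 15750 genes tested were called higher. MYH8, MYH1 and MYH2 passed the filter through the SMARCB1 libraries, where they are high, so the count is given as a description. MYH8 was at least 245-fold higher with SMARCB1, measured against the floor in the GFP libraries (adjusted p = 4.37e-13). MYH2 had a change of 8.04 ± 0.20 log2 units (SE, adjusted p = 4.84e-16), and MYH1 was at least 2.17-fold higher (adjusted p = 0.000309). The size for MYH2 rests on the few counts in GFP with dBRD9-A: without replicate 1 of that group it was 8.91. MYH3 had a change of -0.56 ± 0.35 log2 units (SE, adjusted p = 0.178).

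In DMSO, the contrast used to choose MYH8, the corresponding values were at least 434-fold for MYH8, a log2 fold change of 7.38 for MYH2, at least 6.67-fold for MYH1 and a log2 fold change of -0.94 for MYH3. In that contrast 65% of the 15750 genes tested were called in either direction.

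In SMARCB1 cells MYH8 was lower with dBRD9-A than in DMSO. The differences of MYH2, MYH1 and MYH3 did not pass the test in the main scaling, and MYH13 and MYH4 were not tested. The mean of MYH8 went from 31.6 ± 4.07 to 20.8 ± 0.906 CPM (SD, n = 3), and MYH8 thus fell by 0.61 on the log2 scale (SE 0.08, adjusted p = 0.00113). MYH8 was the 1 member of the 4 tested that was called, where 1.25% of all genes tested were called lower. This contrast shares the SMARCB1 in DMSO libraries with the one that singled out MYH8, and those libraries are the higher group in both. Choosing MYH8 by high values there can favour an apparent fall here. The p-values of MYH8 in this contrast do not account for that choice, also when libraries are left out. Leaving out each of the 12 libraries in turn gave log2 fold changes of -0.68 to -0.49, with adjusted p from 0.00108 to 0.00813. The count of genes called across the whole table moved more, from 304 to 174 and 169 without replicates 2 and 3 of SMARCB1 in DMSO and to 195 without replicate 3 of SMARCB1 with dBRD9-A.

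MYH2, which had risen with SMARCB1 as MYH8 had, went from 24.0 ± 1.11 to 21.1 ± 0.803 CPM with dBRD9-A (SD, n = 3), a change of -0.19 ± 0.08 log2 units (SE, adjusted p = 0.313). MYH1 had a change of -1.32 ± 0.38 log2 units (SE, adjusted p = 0.125) and MYH3 of -0.08 ± 0.36 (SE, adjusted p = 0.961). In MYH8, MYH2 and MYH1 the lowest DMSO library lay above the highest dBRD9-A library, where 16.9% of all genes tested had groups that did not overlap. When libraries were scaled to the spike-in RNAs, which lowered the median of all genes in this contrast by 0.14, MYH2 (-0.33, adjusted p = 0.0331) and MYH1 (-1.46, adjusted p = 0.0314) also passed. SMARCB1 itself was lower with dBRD9-A, by a change of -0.52 ± 0.03 log2 units (SE, adjusted p = 4.95e-08), and its part in the lower MYH8 was not tested.

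The balance between the abundant members can be read within a library, where depth and scaling cancel. The ratio of MYH8 to MYH2 counts was 1.31, 1.13 and 1.5 in SMARCB1 in DMSO and 0.974, 0.957 and 1.03 with dBRD9-A, means of 1.32 ± 0.187 and 0.987 ± 0.0374 (SD, n = 3). All ratios in DMSO lay above all ratios with dBRD9-A. The mean log2 ratio differed by -0.406 between the treatments. The ratio was chosen after the values were seen and MYH8 was singled out in the same SMARCB1 in DMSO libraries, so it is a description with no test.

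**Figure D2:**
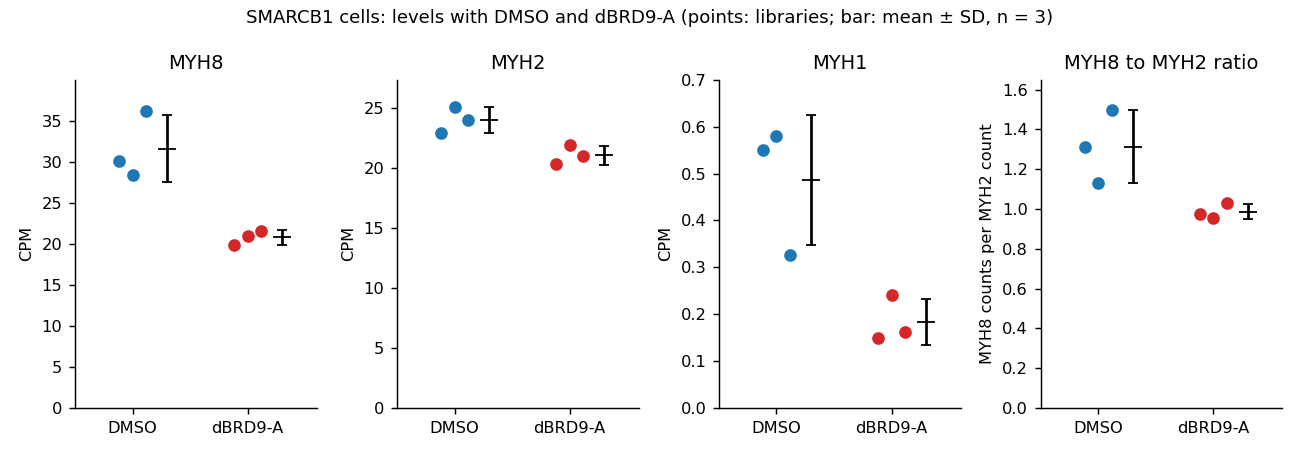
CPM of MYH8, MYH2 and MYH1 and the ratio of MYH8 to MYH2 counts in SMARCB1 cells, DMSO in blue and dBRD9-A in red, with points for libraries and bars for mean ± SD of 3. The treatments do not overlap in any of these panels, and the distance relative to the level is larger for MYH8 (31.6 against 20.8 CPM) than for MYH2 (24.0 against 21.1 CPM).

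Treatment with dBRD9-A in GFP cells left MYH8, MYH1, MYH4 and MYH13 at 0 counts, so no response could be seen there. Of the 4 members tested, MYH8 and MYH1 could therefore not be called in this contrast. For MYH2 and MYH3 edgeR made no call and gave no unadjusted p under 0.05, where it called 15.9% of all genes tested. DESeq2 gave an adjusted p for 2 of the 4 and called none. MYH2 had a change of -0.85 ± 0.61 log2 units (SE, adjusted p = 0.409) between groups with at most 14 counts a library, and leaving out 1 library took it from -1.72 (without replicate 1 of GFP with dBRD9-A) to -0.08 (without replicate 3 of GFP in DMSO). MYH3 had a change of -0.46 ± 0.31 log2 units (SE, adjusted p = 0.365). The difference between the responses to dBRD9-A in SMARCB1 and GFP cells was 0.66 ± 0.62 for MYH2 and 0.38 ± 0.48 for MYH3 on the log2 scale (SE), with adjusted p of 0.666 and 0.769, and the value for MYH2 rests on the same few GFP counts. For this difference 3.8% of all genes tested were called. For MYH8 and MYH1 that difference has no estimate, because GFP cells had no counts.

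The other 9 myosin heavy chain genes, which lie outside the cluster, were described by class. The nonmuscle chains MYH9, MYH10 and MYH14, the 3 that passed the filter, were all called higher in SMARCB1 cells with dBRD9-A, where 63.3% of all genes tested were called in either direction. MYH9 had a log2 fold change of 0.79 ± 0.05, MYH10 of 0.60 ± 0.04 and MYH14 of 1.19 ± 0.11 (SE, adjusted p = 1.39e-10, 5.93e-10 and 3.24e-08). Per kb, MYH9 went from 54.1 ± 1.69 to 93.3 ± 7.46 CPM and remained the most abundant chain in each group. MYH8 and MYH2 in SMARCB1 cells lay between MYH10 (51.0 ± 3.5 CPM per kb in DMSO) and MYH14 (1.86 ± 0.0839). The cardiac chains MYH6 and MYH7 and the smooth muscle chain MYH11 had at most 2 counts in any library. MYH7B, MYH15 and MYH16 had at most 13 counts.

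**Figure D3:**
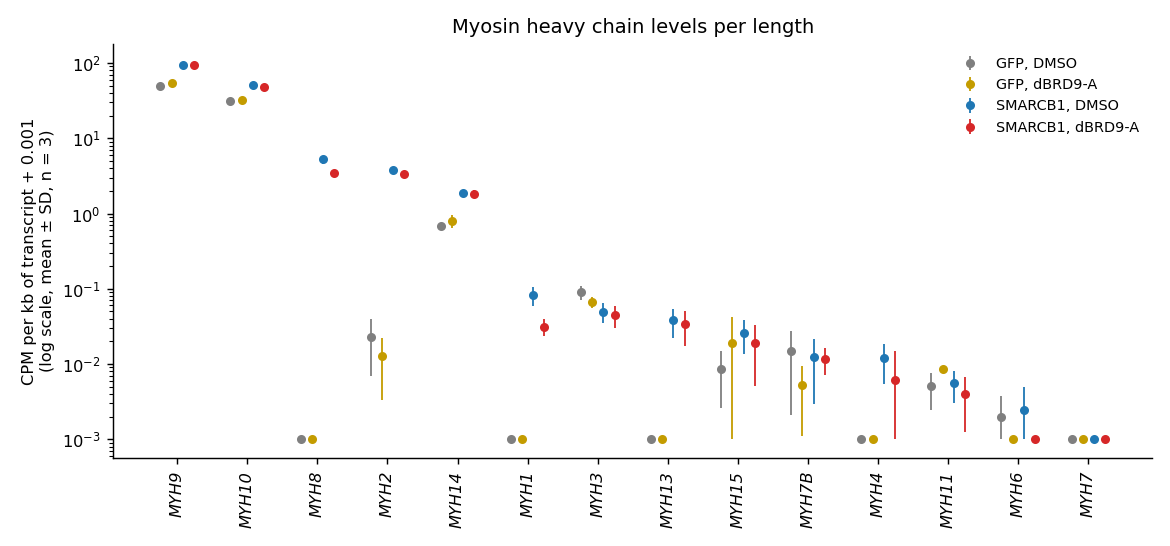
CPM per kb of transcript plus 0.001, on a log scale, for 14 myosin heavy chain genes in the 4 groups (mean ± SD, 3 libraries), ordered by SMARCB1 in DMSO. MYH8 and MYH2 are at 5.23 and 3.79 CPM per kb in SMARCB1 in DMSO, next below nonmuscle MYH9 and MYH10 and above MYH14, while MYH7 is at 0 throughout.

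The genes beside the cluster moved in both directions. The list of neighbours held 20 genes, of which 19 had a row and 11 were tested. In SMARCB1 against GFP with dBRD9-A, 4 were called higher and 6 lower (33% and 30.4% of all genes tested), with a median log2 fold change of -0.28 against 0.009 over all genes. SCO1, a copper chaperone for cytochrome oxidase and the next gene beyond MYH3, went down from 106 ± 0.396 to 79.5 ± 1.16 CPM (SD, n = 3) and so fell by 0.41 on the log2 scale (SE 0.03, adjusted p = 4.66e-10). SCO1 overlaps ADPRM on the opposite strand. USP43, a deubiquitinase gene, fell by 0.53 (SE 0.06, adjusted p = 6.36e-07) and ZNF18 by 0.47 (SE 0.06, adjusted p = 2.16e-06). Next to MYH13 on the other side, GAS7, named after its values were seen, had 0 counts in GFP with dBRD9-A and 14 to 23 in SMARCB1 with dBRD9-A, at least 4.59-fold higher (adjusted p = 4.67e-05). RCVRN and GSG1L2, also near MYH13 and named after their values were seen, had 0 counts in every library. MAP2K4 had a log2 fold change of 0.21 that turned to -0.12 with spike-in scaling.

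**Figure D4:**
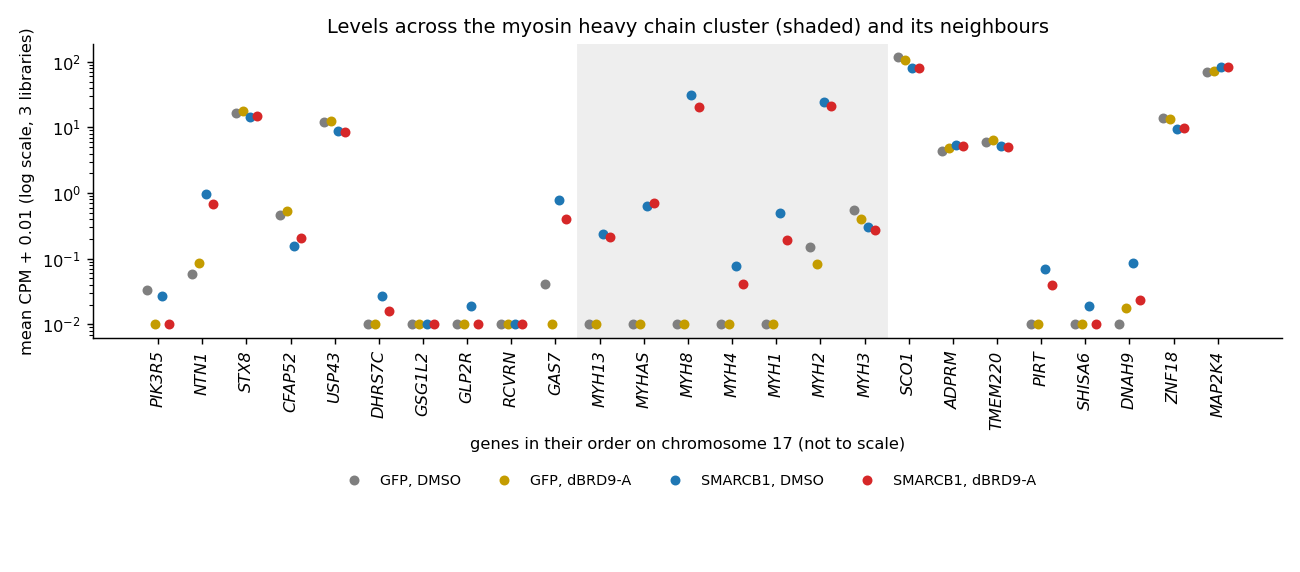
Mean CPM plus 0.01 (log scale, 3 libraries) of the clustered genes (shaded, with the antisense gene MYHAS) and neighbouring genes in chromosomal order, for the 4 groups. Within the shaded block MYH13, MYHAS, MYH8, MYH4 and MYH1 are at 0 in GFP cells, whereas SCO1 beside MYH3 is at 79.5 to 117 CPM in all groups.

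Of 21 regulators of the muscle programme, 9 were tested in SMARCB1 against GFP with dBRD9-A. 3 were called higher and 2 lower, where 33% and 30.4% of all genes tested were called (median log2 fold change 0.08, all genes 0.009). With spike-in scaling 2 were higher and 4 lower, where 2129 and 9046 of the 15750 genes tested were. MEF2C, whose protein binds the MEF2 motif, fell by 7.06 on the log2 scale (SE 0.12, adjusted p = 2.51e-18), from 1219 to 1493 counts in GFP with dBRD9-A to 5 to 18 in SMARCB1 with dBRD9-A. Its relatives MEF2A and MEF2D, named after their values were seen, had log2 fold changes of -0.05 ± 0.06 and -0.10 ± 0.08 (SE, adjusted p = 0.477 and 0.316). SIX4, a homeobox factor, rose by 0.31 (SE 0.04, adjusted p = 4.79e-06), a difference of -0.02 with spike-in scaling. MYMX, the fusion protein myomixer, fell by 2.16 (SE 0.25, adjusted p = 5.83e-07). PAX3, a factor of muscle precursors named after its values were seen, had 0 counts in GFP libraries and 4 to 16 in SMARCB1 libraries, and with dBRD9-A its level was at least 2.04-fold higher with SMARCB1 (adjusted p = 0.00401).

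The other parts of the sarcomere did not move in 1 direction. Of 33 listed genes 32 had a row and 21 were tested, of which 8 were called higher and 10 lower in SMARCB1 against GFP with dBRD9-A (median log2 fold change -0.17, all genes 0.009). Among all genes tested 33% were called higher and 30.4% lower. With spike-in scaling, which lowered the median of all genes in this contrast by 0.32, 7 were higher and 13 lower, where 2129 and 9046 of the 15750 genes tested were. Among all genes called, 52% were higher and 48% lower in the main scaling and 19.1% and 80.9% with spike-in scaling. ACTN3, the alpha-actinin of fast fibres, fell by 5.52 on the log2 scale (SE 0.18, adjusted p = 1.57e-14) to 4 to 8 counts. TNNI1 and TNNT1, troponin subunits of slow fibres, fell by 1.39 (SE 0.10) and by 0.38 (SE 0.04), with adjusted p of 6.71e-10 and 9.64e-08. TNNC1, the troponin that binds calcium in slow fibres and heart, rose by 0.76 (SE 0.05, adjusted p = 7.26e-10). The tropomyosin gene TPM3 rose by 0.30 (SE 0.02, adjusted p = 3.7e-09), which became -0.03 with spike-in scaling. TPM1, also a nonmuscle tropomyosin, fell by 0.17 (SE 0.02, adjusted p = 5.89e-06). DES, ACTN2 and XIRP1, named after their values were seen, had log2 fold changes of 1.83 ± 0.26, 2.58 ± 0.32 and 4.30 ± 0.54 (SE, adjusted p = 7.83e-06, 1.4e-06 and 2.04e-06) at no more than 1.61 CPM on average in any group. At similar levels, CKM, MYL3, TCAP and TNNC2, also named after their values were seen, went the other way. Their log2 fold changes were -2.72 ± 0.47, -1.93 ± 0.35, -1.86 ± 0.49 and -1.66 ± 0.24 (SE, adjusted p = 7.04e-05, 9.4e-05, 0.0031 and 1.13e-05).

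**Figure D5:**
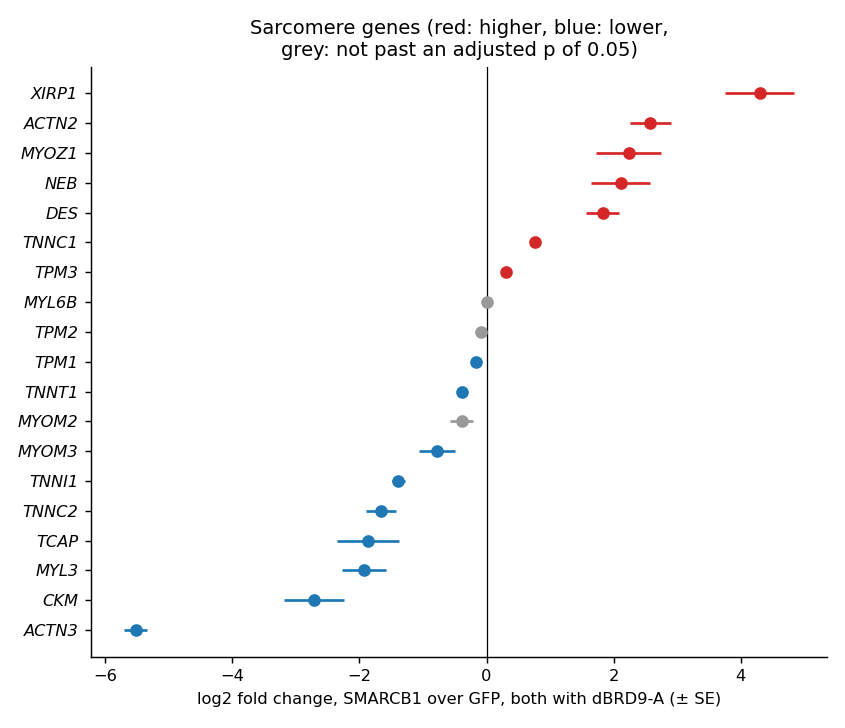
Log2 fold change ± SE of 19 sarcomere genes in SMARCB1 against GFP with dBRD9-A, without MYL4 and TTN (each silent in one of the groups), red where called higher, blue where called lower and grey where neither. Values run from ACTN3 at -5.52 to XIRP1 at 4.30, on both sides of 0.

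Of 9 genes listed for folding and turnover of myosin, 7 were tested in the same contrast and 5 called, 4 higher and 1 lower. Among all genes tested 33% were called higher and 30.4% lower. UNC45A, a myosin chaperone, rose by 0.15 (SE 0.03, adjusted p = 0.000317), which turned to -0.17 with spike-in scaling. MYOT, on the list although a Z-disc protein, rose by 0.45 (SE 0.10, adjusted p = 0.000487). TRIM55, a ubiquitin ligase of the sarcomere, fell by 1.15 (SE 0.04, adjusted p = 1.33e-14), and its relative TRIM54 was at least 11.2-fold higher (adjusted p = 1.16e-06) at 0.952 ± 0.204 CPM. With spike-in scaling 2 were higher and 4 lower, where 2129 and 9046 of the 15750 genes tested were.

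With dBRD9-A in SMARCB1 cells edgeR called none of the 51 genes tested from these 5 lists, where it called 1.93% of all genes, of which 6 had an unadjusted p under 0.05, and DESeq2 called TPM1 alone. With spike-in scaling 4 were called lower, 1 regulator and 3 sarcomere genes, where 834 of the 15750 genes tested were. In GFP cells the same treatment gave 4 calls among the 51, with TBX1, TPM1 and TRIM55 higher (7.43% of all genes tested) and SCO1 lower (8.47% of all genes tested), and log2 fold changes of 0.39 ± 0.11, 0.15 ± 0.02, 0.30 ± 0.04 and -0.14 ± 0.03 (SE, adjusted p = 0.0258, 0.000263, 1.29e-05 and 0.00128). With spike-in scaling 34 of the 51 were called higher and 0 lower, where 11083 and 227 of the 15750 genes tested were, and SCO1 turned to 0.22 (adjusted p = 0.00328).

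Muscle cells of other kinds were checked through their markers. The summed level of 8 skeletal muscle markers (MYOD1, MYOG, MYF5, MYF6, PAX7, CKM, DES and ACTA1) was 0.588 to 1.02 CPM in GFP libraries and 1.27 to 1.98 CPM in SMARCB1 libraries, with 4 and 5 of the 8 at 0 in every library of a group. The higher sum came from DES, at 0.235 (DMSO) and 0.381 CPM (dBRD9-A) in GFP cells and 1.61 and 1.36 CPM in SMARCB1 cells. CKM went the other way, from 0.36 and 0.545 CPM to 0.0771 and 0.0831 CPM. ACTA1 averaged at most 0.1 CPM in any group. The sum of the smooth muscle markers ACTA2, CNN1, TAGLN and MYH11 was 118 to 132 CPM in GFP in DMSO and 77.2 to 84.0 CPM in GFP with dBRD9-A. It was 268 to 276 CPM in SMARCB1 in DMSO and 266 to 268 CPM in SMARCB1 with dBRD9-A. Most of it was TAGLN, at 110 (DMSO) and 66.5 CPM (dBRD9-A) in GFP cells and 252 and 247 CPM in SMARCB1 cells. The sum was thus higher in SMARCB1 cells, as MYH8 and MYH2 were, but did not follow MYH8 in the response to dBRD9-A. MYH11, which defines that cell type, was at most 2 counts. The sum of 5 heart markers was 24.2 to 26.4 CPM in GFP in DMSO and 14.6 to 15.2 CPM in GFP with dBRD9-A. In SMARCB1 cells it was 17.9 to 19.7 CPM in DMSO and 16.2 to 18.6 CPM with dBRD9-A. The part of these in the myosin values was not tested.

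By Pearson correlation of log2 CPM over the 12 libraries, the genes most like MYH8 were UCA1 (0.9996), RCAN1 (0.9994), ANTXR1 (0.9993), SULF2 (0.9993) and MLPH (0.9992). The measure is set mainly by the distance between 6 GFP and 6 SMARCB1 libraries, and ranked by Spearman correlation the first 5 genes were all others. MYH2 stood at 0.9897 (rank 584) and MYH1 at 0.9622 (rank 1874). Of the 5, MLPH was at 0 counts in GFP libraries as MYH8 was, with 2.85 ± 0.152 CPM in SMARCB1 in DMSO and 1.87 ± 0.16 with dBRD9-A (SD, n = 3). Among all gene rows, 38838 had at most 3 counts in each of the 6 GFP libraries. Of these, 8 reached a mean of at least 10 CPM in both SMARCB1 groups. They were SMARCB1 itself, MYH8, ZSWIM6, ARHGEF28, DIAPH2, GNG11, MID1IP1 and NPPB. MYH8, at 31.6 CPM, came next after SMARCB1 in SMARCB1 in DMSO, and 2 of the 8 were at 0 in all 6 GFP libraries. As MYH8 had been singled out by its rise in DMSO, its place in this order is a description only.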

How the data were processed

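RNA was purified with an RNeasy Plus kit and sequenced from TruSeq Stranded mRNA libraries, per the labels' protocols. The authors deposited 3 tables of expected counts per gene, which need not be whole. The submitters' processing notes name STAR, RSEM 1.3.1, DESeq2 and GRCh37/hg19. The annotation release and use of strand are not given in the sources used here. Columns that occur in more than 1 table held identical values (6 columns). Symbols came from unversioned Ensembl identifiers (51996 of 57820 matched). The 40 spike-in rows (0.963% to 1.302% of counts) stayed out of library sizes and tests.

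Counts were rounded and tested in R 4.3.3 with edgeR 4.0.16: filterByExpr (minimum count 10, leaving 15750 genes), TMM factors and a quasi-likelihood fit to all 12 libraries with 1 coefficient per group. SEs come from the quasi-F statistic. A fold against a silent group (at most 3 counts in every library) was taken from the other group's mean CPM over the highest floor among the silent libraries, and is a lower bound. Levels per kb use the longest coding transcript in GENCODE release 29. In simulated counts with known changes for SMARCB1 against GFP with dBRD9-A (15529 genes), 93.9% of changes of 1 and 54.5% of changes of 0.5 on the log2 scale were recovered, with 6 false calls. The simulation gave every gene the same spread between replicates and changed few genes, whereas 63.3% were called in the data. Recovery in the data can therefore differ. The lowest chi-square per degree of freedom between replicates was 2.89, so none was counted as a repeat of another.

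The members and gene lists were chosen with earlier results of these data known. From each list the text names up to 4 called genes by mean CPM and up to 3 by size of change among those with a mean of at least 50 counts. One gene that the rule would name is not reported here. All members and the antisense genes overlapping them are named whatever their values.
Alternatives were DESeq2's size factors and its test (DESeq2 1.42.0), spike-in scaling, no low-count filter, unrounded counts, only the groups compared, a replicate block and leaving out each library.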

Additional observations from a re-analysis of the deposited data

How the results depend on the processing

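Of the values recomputed, the rise of MYH8, MYH2 and MYH1 with SMARCB1 under dBRD9-A kept its direction and passed the test under each alternative run. MYH1 gave no value for that contrast when only the compared groups were fitted. The fall of MYH8 with dBRD9-A in SMARCB1 cells also kept its direction and passed each time. No alternative accounts for the choice of MYH8 by the same SMARCB1 in DMSO libraries. The number of genes called with dBRD9-A in SMARCB1 cells, 304, was 652 without the low-count filter, 159 with only the compared groups fitted, 873 with spike-in scaling and 169 to 422 when single libraries were left out. With spike-in scaling 11310 genes were called with dBRD9-A in GFP cells (main count 2504; 98% and not 46.7% of them higher) and 11270 in the interaction (main count 598; 0.6% and not 56.5% higher). The higher share became 72.6% (main 51.4%) for SMARCB1 in DMSO and 4.5% (main 35.2%) for dBRD9-A in SMARCB1 cells. That scaling shifted the middle of the log2 changes over all genes by 0.17 (SMARCB1 in DMSO), 0.36 (dBRD9-A in GFP cells) and -0.49 (interaction). It took MYH2 to -0.33 and MYH1 to -1.46 with dBRD9-A in SMARCB1 cells and MYH3 to -0.89 (adjusted p = 0.0337) for SMARCB1 with dBRD9-A, and the levels of MYH8 and MYH2 in SMARCB1 with dBRD9-A to 19.3 and 19.6 CPM. The small change of MYH3 with dBRD9-A in SMARCB1 cells turned to 0.04, 0.08 and 0.15 (range -0.37 to 0.15) without replicates 1 and 2 of SMARCB1 in DMSO and replicate 3 of SMARCB1 with dBRD9-A. Of the genes most like MYH8, 0 were shared between the rankings by Pearson and Spearman. Where these values moved, the cause was not tested. Same-numbered libraries did not deviate together (correlations -0.0559 to 0.0611 over 18 pairs, -0.0535 to 0.0740 over 36 pairs of different number). No pairing by number was thus seen and none was used in the main fit. With so few libraries per group this check cannot exclude a paired design. With the replicate number as a block 254 genes were called with dBRD9-A in SMARCB1 cells and 9812 for SMARCB1 with dBRD9-A, and no member's call changed. At this depth MYH4 and MYH13 did not pass the filter on low counts and had no test in the main fit. Their results without that filter are not given here. A member at 0 could be present below the floor.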
